A study of Mus musculus with 3 samples.

Results

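miR-199 and miR-214 are microRNAs of mesenchymal tissue and of the heart. They were followed here as 4 mouse hairpins, Mir199a-1, Mir199a-2, Mir199b and Mir214, out of 1137 hairpins searched. The members were taken by name: every trimmed read of 18 to 25 nt that matched a member hairpin exactly, or with 1 or 2 bases added at its 3′ end, was counted, whichever arm it came from. This gave 93366 reads in the library labelled siSrf1 and 67242 in the library labelled siSrf2. The members contribute 5 distinct arms of the 687 arms that had any read.

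The material was HL-1, a mouse cardiac muscle line that goes on contracting in culture. The cells were transfected with siRNA (9 µl of a 20 µM stock, with a lipid transfection reagent) and harvested after 48 h. By title, the libraries labelled siSrf1 and siSrf2 received an siRNA against Srf, which encodes serum response factor, a DNA-binding regulator of muscle genes. The siRNA entries of the same samples disagree with the titles (Srf si2 for the library labelled siSrf1, the unspecific siNon for the library labelled siSrf2), so directions below name library labels and not treatments. The third library, titled siNon, was not analysed here. Each label has 1 library from a single line, so there was no replicate check and no test across samples. Every interval given is a 95% interval that covers counting error only. Without molecular identifiers a molecule copied by PCR can be read more than once, so the intervals may be too narrow even for that.

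A miRNA hairpin is cut by Drosha and then by Dicer into a short duplex, and usually 1 strand of it, from the 5p or the 3p arm, stays in Argonaute. Bases 2 to 8 of that strand, the seed, choose its targets, so a strand that begins 1 base earlier carries another seed. Mir199a-2 and Mir214 lie in a shared long noncoding RNA, Dnm3os, which is known from mesenchymal tissue and skeletal development. In the heart, miR-199a has been studied in hypoxia and cardiomyocyte proliferation, and miR-214 in hypertrophy and calcium handling.

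The mature sequences are shown because the identity of the arms decides which hairpins can be told apart. They are RefSeq's (build GRCm38.p6), written 5′ to 3′ with the seed in capitals:
miR-199a-5p: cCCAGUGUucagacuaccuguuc
miR-199a-3p and miR-199b-3p: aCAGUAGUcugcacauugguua
miR-214-5p: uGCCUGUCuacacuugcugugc
miR-214-3p: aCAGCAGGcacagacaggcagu
The 3p arms of miR-199a and miR-199b are the same molecule and are called miR-199-3p below. From the main 3p start, the 3 miR-199 hairpins share 23 bases. The 4 seeds differ from each other. No other arm with reads in these libraries carried any of them, and among other RefSeq mature miRNAs only miR-761, with 0 reads here, shares the seed of miR-214-3p.

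In the NCBIM37 genome, Mir199a-1 was found at chr9:21300939-21301008 on the minus strand, within an intron of Dnm2, whose transcripts run on the opposite strand. Mir199a-2 lies at chr1:164147945-164148054 and Mir214 at chr1:164153499-164153608, both on the plus strand, 5444 bases apart. Both lie within the exon of transcript Dnm3os-001 and, on the other strand, in an intron of Dnm3. Mir199b lies at chr2:32173980-32174089 on the plus strand, within an intron of Dnm1 and again opposite to it. The 3 host genes encode dynamins, GTPases that pinch off membrane vesicles. The whole mature miR-199-3p matches the genome at 3 places, miR-199a-5p at 2 and miR-214-3p at 1, which are the member hairpins themselves.

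The libraries held 14911499 and 14518157 reads. An insert of 15 nt or longer was recovered from 59.4% of them in the library labelled siSrf1 and from 57.2% in the library labelled siSrf2. miRNA reads came to 5269971 and 4587054, and levels are given per 1000000 of these reads (RPM). The defining miRNAs of cardiac muscle were present in both libraries. At least 50 reads were found for 6 of 6 (miR-1a, miR-133a, miR-133b, miR-208a, miR-208b and miR-499). Together they made up 64.3% and 53.3% of miRNA reads. Of these, miR-1a was lower in the library labelled siSrf2 (627212 and 516390 RPM). miR-133a (1447 and 2822 RPM) and miR-133b (1257.5 and 2593.8, shared with miR-133a) were higher in that library. So were miR-208a (49.1 and 79.8 RPM) and miR-208b (156 and 187). miR-499 differed little (13904 and 13812 RPM). Of the epithelial list, 0 of 7 reached 50 reads summed over both libraries, with miR-141 and miR-205 at 0.

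The 5 member arms were present at very unequal levels, and a single strand accounted for nearly all reads. miR-199-3p had 92901 reads in the library labelled siSrf1, which is 17628 RPM (17515 to 17742). In the library labelled siSrf2 it had 66929 reads, or 14591 RPM (14481 to 14702). It was the sixth most-read arm over both libraries, behind miR-1a-3p and let-7 arms. The library labelled siSrf1 was the higher one, and the intervals did not overlap.

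The other strands were far scarcer. miR-199a-5p, the partner strand from Mir199a-1 and Mir199a-2, had 208 and 154 reads, or 39.5 RPM (34.3 to 45.2) and 33.6 RPM (28.5 to 39.3). miR-214-3p had 190 and 124 reads, or 36.1 RPM (31.1 to 41.6) and 27.0 RPM (22.5 to 32.2). Their intervals overlapped between the libraries, and within each library these 2 arms could not be ordered: the ratio of miR-199a-5p to miR-214-3p was 1.09 (0.895 to 1.34) and 1.24 (0.974 to 1.59).

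miR-214-5p had 3 reads in each library (exact Poisson interval 0.619 to 8.77). miR-199b-5p had 0 reads in the library labelled siSrf1 (0 to 3.69). In the library labelled siSrf2 it had 1 read (0.0253 to 5.57). The 2 scarcest arms were therefore not distinguishable from each other at this depth.

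Although Mir199a-2 and Mir214 lie in a shared exon, their main strands differed by more than 400-fold in reads. The library labelled siSrf1 had 489 reads of miR-199-3p (424 to 567) for each read of miR-214-3p. The library labelled siSrf2 had 540 (453 to 649), and these intervals overlap. miR-199-3p sums 3 hairpins, and these are shares of reads and not of molecules. Reads that told Mir199a-1 from Mir199a-2 were almost absent: Mir199a-2 alone matched 1 read in each library and Mir199a-1 alone matched 0. The Mir199a-2 reads began at bases 53 and 54 of the hairpin, between the 5p and 3p arms, and so were not miR-199-3p reads. How the miR-199-3p reads divide between the 3 loci could therefore not be measured.

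**Figure D1:**
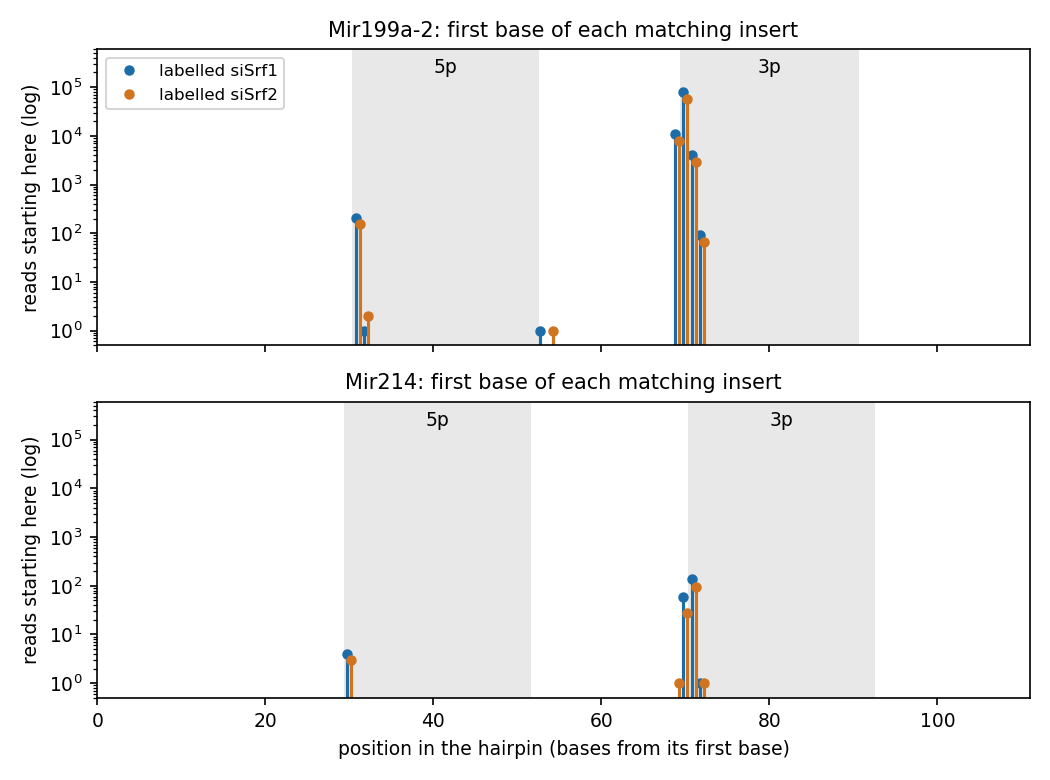
Reads by the first base of each insert along the Mir199a-2 and Mir214 hairpins (x axis, bases from the hairpin's first base; y axis, reads, log scale; blue and orange, the libraries labelled siSrf1 and siSrf2; grey, the arms' most-read inserts). The 3p arm of Mir199a-2, which holds the reads of all 3 miR-199 hairpins, dominates (92901 and 66929 reads), while the miR-214 arms, within their start and end windows, hold 190 and 124 reads at 3p and 3 in each library at 5p.

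The 5p arm is where miR-199a and miR-199b can be told apart. Within the stretch of 18 bases every insert covers, they differ at a single base, C10T, counted from 1 at the 5′ end with the miR-199a base first. The most-read miR-199a insert and the single miR-199b read in the normal window are shown with that base in capitals, as DNA letters from the deposited reads:
miR-199a-5p: cccagtgttCagactacctgtt
miR-199b-5p: cccagtgttTagactacctg
The first of these had 131 reads in the library labelled siSrf1 and 87 in the library labelled siSrf2, and the second had 0 and 1.

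Nearly all 5p reads were of the miR-199a kind. Over every insert on the 5p arms, at any position, 2 of 213 reads matched miR-199b in the library labelled siSrf1, a share of 0.939% (exact Clopper-Pearson interval 0.114 to 3.35). In the library labelled siSrf2 it was 2 of 156 reads, or 1.28% (0.156 to 4.55). Apart from the read above, these were 18 nt inserts that ended in TC where the hairpin has CC. The matching scored TC as 2 added bases, although its last base equals the encoded one. Within the normal start and end range, the library labelled siSrf1 had 0 miR-199b reads of 208, for which the exact interval runs up to 1.76%. The miR-199b read in the normal window differs from miR-199a by a single C-to-T change. The 18 nt inserts carry that change and a second C-to-T at their next-to-last base. Among reads with a single change, 3 in each library showed C-to-T, summed over the other 6 C positions of the shared 18 bases. At the 4 C positions of miR-199-3p, C-to-T was found in at most 0.297% and 0.318% of reads per position. Reads with 2 changes are outside these values. Whether the few miR-199b reads are molecules or base changes was not tested.

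The choice of strand was lopsided in both families and alike in both libraries. For miR-199, the 5p arms made up 208 of 93109 reads, or 0.223% (0.194 to 0.256), in the library labelled siSrf1. In the library labelled siSrf2 they made up 155 of 67084, or 0.231% (0.196 to 0.270). For miR-214 the 5p share was 3 of 193 reads, 1.55% (0.322 to 4.48), and 3 of 127 reads, 2.36% (0.490 to 6.75). Both pairs of intervals overlap. Over the 98 hairpins or families with at least 200 reads in each library, 8 (8.16%) changed their 5p share by at least 10 points between the libraries without overlap of the intervals, and miR-199 was not among them. With a minor-arm share of 0.227% over both libraries, miR-199 stood 38th from the most lopsided of the 98, whose median was 0.588%. miR-214 had too few reads for this ranking.

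Between the libraries, the 3 measured member arms (at least 50 reads summed) were all somewhat higher in the library labelled siSrf1. The log2 ratio, siSrf1 minus siSrf2 with 0.5 reads added to each count, was 0.27 (0.26 to 0.29) for miR-199-3p, which is 1.21-fold. It was 0.41 (0.08 to 0.75) for miR-214-3p, or 1.33-fold, and 0.23 (−0.07 to 0.54) for miR-199a-5p, an interval that holds 0. None of the 3 passed the size rule of a 2-fold difference with the whole interval on 1 side of 0. By that rule 25% of the 252 measured arms were higher in the library labelled siSrf2 and 0% were higher in the library labelled siSrf1. These counts, 63 and 0, depend on the scaling: they were 35 and 3 after TMM scaling, 37 and 3 when libraries were scaled by the median of ratios, and 41 and 2 when miR-1a-3p was left out of the total.

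Against the other arms, the members lay towards the siSrf1 side. The median log2 ratio of the measured arms was −0.44, with 51 arms above 0 and 201 below, and it moved to 0.04, 0.00 and −0.06 under those 3 scalings. Relative to that median, miR-199-3p stood at 0.71, miR-199a-5p at 0.67 and miR-214-3p at 0.85. Counting from the siSrf1 end, 17 of 252 arms had a ratio at or above that of miR-199-3p, itself included, and the number was 20 for miR-199a-5p and 6 for miR-214-3p. miR-1a-3p, the most abundant miRNA, took 62.7% of miRNA reads in the library labelled siSrf1 and 51.6% in the library labelled siSrf2. With miR-1a-3p left out of the total, the ratios became 0.65, 0.61 and 0.79 in the same order, and TMM factors gave 0.75, 0.71 and 0.89. No scaling brought a member past the size rule. With tailed reads left out, the interval of miR-214-3p held 0 (0.31, −0.21 to 0.85).

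**Figure D2:**
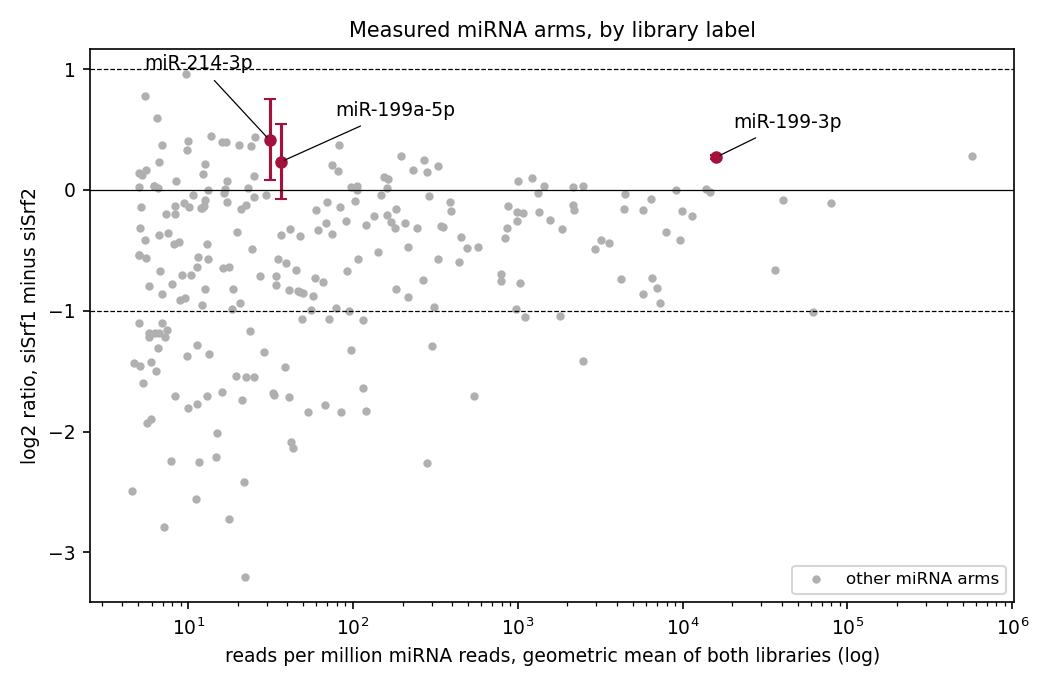
Log2 ratio between the libraries (y axis, siSrf1 minus siSrf2) against abundance (x axis, geometric mean of RPM, log scale) for measured arms with reads in both libraries. Grey points are other arms, red points are members with their 95% counting intervals, and dashed lines mark the 2-fold limits. The members lie above 0, at 0.27, 0.23 and 0.41, and within the 2-fold limits, while most other arms lie below 0.

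The arms whose ratio came nearest to miR-199-3p, among 92 others with at least 1000 reads, were miR-127-3p (0.28, 0.15 to 0.41), miR-1a-3p (0.28, 0.28 to 0.28) and miR-126a-5p (0.25, 0.14 to 0.36). The nearest to miR-214-3p were the same 3 arms. Likeness here is the distance between single ratios of 2 libraries, and all 3 intervals overlap those of the member they were matched to. The remaining mesenchymal markers of the list, miR-143 and miR-145a, had negative log2 ratios. These were −0.35 (miR-143-3p), −0.39 (miR-143-5p), −2.26 (miR-145a-5p) and −0.06 (miR-145a-3p, −0.43 to 0.31). Only miR-145a-5p lay below the median of the measured arms (−0.44). The other arms lay above it, as the members did, and the sign depends on the scaling. Together miR-143 and miR-145a made up 0.755% of miRNA reads in the library labelled siSrf1, below the 1.01% of the library labelled siSrf2. The whole list of 5 came to 2.53% and 2.47%, with the shared miR-199-3p reads counted once. Each of the 5 had at least 50 reads, but miR-199b only through those shared reads. Whether non-muscle cells contributed to the member reads was not tested.

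The 5′ ends of the 3p strands were less uniform than those of most arms. miR-199-3p began at its main base in 83.8% of reads in each library, 1 base earlier in 11.9% (11.6 to 12.1) and 11.8% (11.6 to 12.1), and 1 base later in 4.29% and 4.28%. Over 114 arms with at least 200 reads in each library the median share of the main 5′ end was 99.0% in both, and the median share 1 base earlier was 0.060% and 0.080%. In each library 7 of the 114 arms had a larger share of their reads 1 base earlier than miR-199-3p had. The libraries thus gave nearly the same values, and both lay far from the typical arm.

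miR-214-3p showed the same kind of split. It began at the main base in 71.6% (64.6 to 77.9) and 77.4% (69.0 to 84.4) of reads, and 1 base earlier in 27.9% (21.6 to 34.8) and 21.0% (14.2 to 29.2), with overlapping intervals between the libraries. In each library 4 of the 114 arms exceeded that earlier share. The 5p strand did not share the pattern: miR-199a-5p began at its main base in 207 of 208 and 152 of 154 reads, and no read began 1 base earlier.

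The most-read forms of the 3p strands are shown because the earlier start moves the seed (in capitals, bases 2 to 8 of each form as read):
miR-199-3p, most-read form: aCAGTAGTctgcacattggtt
miR-199-3p, 22 nt form as in RefSeq: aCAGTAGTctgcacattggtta
miR-199-3p, 1 base earlier: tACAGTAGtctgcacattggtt
miR-214-3p, most-read form: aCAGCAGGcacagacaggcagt
miR-214-3p, 1 base earlier: tACAGCAGgcacagacaggcag
The earlier seeds ACAGTAG and ACAGCAG belong to no other arm with reads here and to no other RefSeq mature miRNA. The 21 nt form of miR-199-3p had 42499 and 30787 reads, or 45.7% and 46.0% of the strand. The form with the RefSeq ends came second, with 19683 and 13827 reads (21.2% and 20.7%). The listed earlier form had 7585 and 5434 reads (8.16% and 8.12%). In all, 10 forms with at least 1% in either library held 93.7% of miR-199-3p reads in each library.

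The 4 hairpins share a run of letters across the 3p cut. Below are 20 bases around it, from NCBIM37 on the strand of the hairpin, with the main 3p strand beginning at the eleventh base. The run common to all 4, TGTACAG, is in capitals:
Mir199a-1, chr9:21300954-21300973, minus strand: tgggacaTGTACAGtagtct
Mir199a-2, chr1:164148004-164148023, plus strand: atgccgtTGTACAGtagtct
Mir199b, chr2:32174034-32174053, plus strand: cccaaatTGTACAGtagtct
Mir214, chr1:164153559-164153578, plus strand: gctcaccTGTACAGcaggca
The run covers 3 bases before and 4 bases after the main start. Upstream of it the 4 hairpins differ, and downstream miR-214 departs from the miR-199 hairpins. A shared run is a description of the letters and shows no cause of the split ends.

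At the 3′ end the members went different ways. Of miR-199-3p reads, 15.5% and 16.0% ended in 1 or 2 bases that the hairpin does not encode, close to the medians of 15.1% and 15.2% over the 114 arms. Tails that began with U were on 8.39% and 8.76% of reads and tails that began with A on 6.12% and 6.30%. Of miR-199a-5p reads, 5.29% (11 of 208) and 7.14% (11 of 154) were tailed.

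miR-214-3p was tailed far more often, on 59.5% (113 of 190 reads) and 57.3% (71 of 124), and only 5 of the 114 arms were higher. Most of its tails began with A: 42.1% (35.0 to 49.5) and 41.1% (32.4 to 50.3) of all its reads, against medians of 8.01% and 8.58%, with 1 of the 114 arms higher. A tail beginning with U was on 12.6% and 12.9%. The tails are shown in capitals on its 3 most-read tailed forms:
miR-214-3p, full length and A: acagcaggcacagacaggcagtA
miR-214-3p, 2 bases short and A: acagcaggcacagacaggcaA
miR-214-3p, 1 base short and A: acagcaggcacagacaggcagA
These had 23 and 11, 14 and 10, and 12 and 6 reads in the libraries labelled siSrf1 and siSrf2. The first 18 bases of miR-214-3p also occur at 2 other places of the genome, but 0 of its 113 and 71 tailed reads fitted the genome there with the tail included. A total of 25 forms with at least 1% in either library held 93.2% and 94.4% of its reads, but at this depth 1% is 1 or 2 reads, so the number of forms cannot be set beside that of miR-199-3p.

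**Figure D3:**
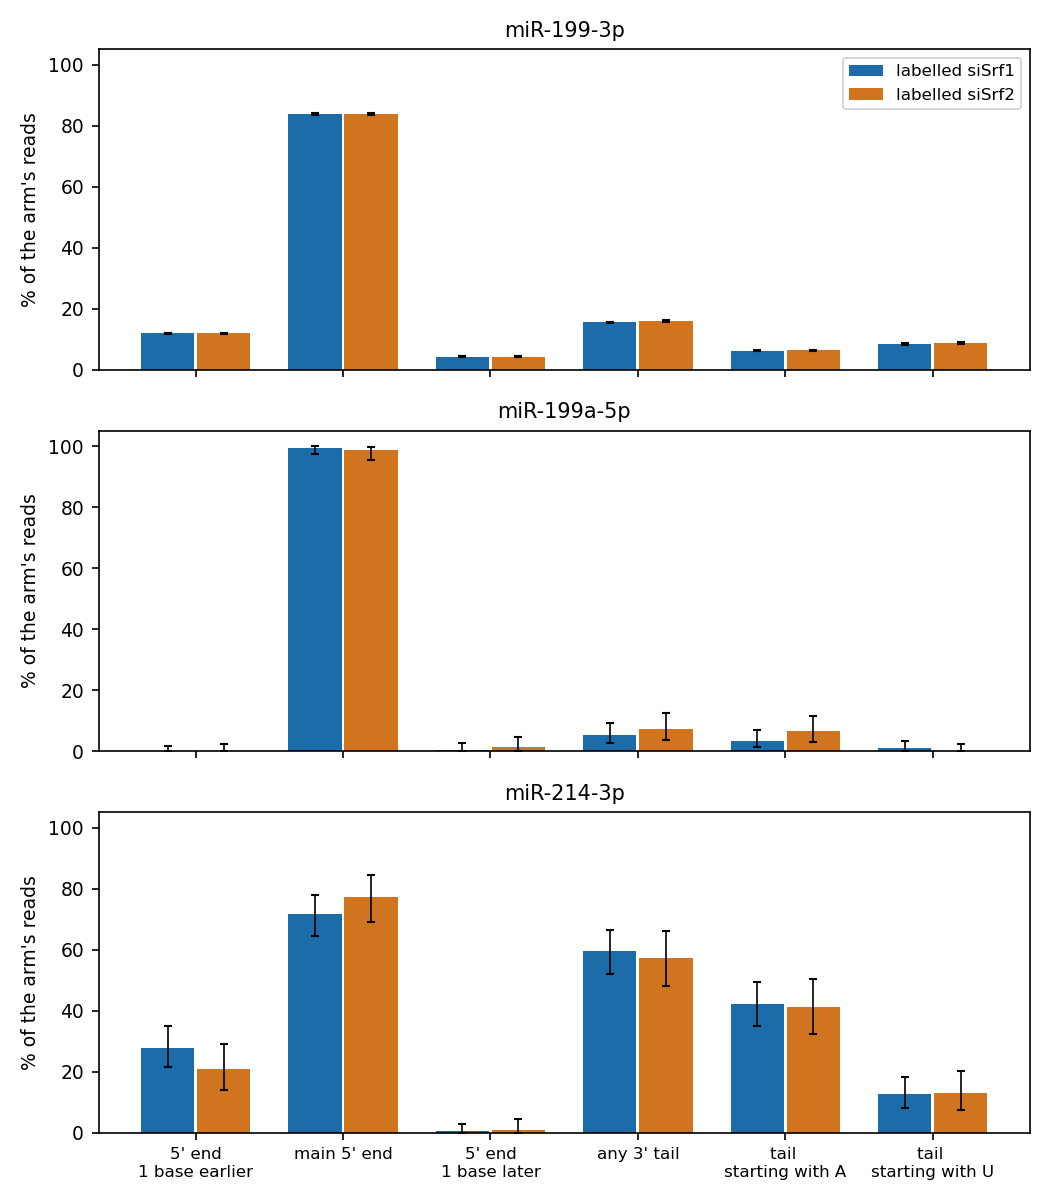
Share of each arm's reads (y axis, percent) by 5′ end and by 3′ tail, for miR-199-3p, miR-199a-5p and miR-214-3p, with bars for the libraries labelled siSrf1 (blue) and siSrf2 (orange) and exact 95% counting intervals. The earlier 5′ end appears in both 3p strands (11.9% and 27.9% in the library labelled siSrf1) and not in miR-199a-5p, and tails beginning with A are high in miR-214-3p alone among the 3.

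Lengths followed from these ends. Of miR-199-3p reads, 46224 of 92901 and 33471 of 66929 were 21 nt long, and 36.9% and 36.5% were 22 nt. The most frequent length was 22 nt for miR-199a-5p (64.9% and 57.8%) and for miR-214-3p (43.2% and 42.7%), and of miR-214-3p reads a further 28.4% and 25.8% were 23 nt. Of the members' end and tail measures, the intervals of the 2 libraries were apart only for miR-199-3p tails that began with C (0.421% and 0.314% of reads) and, within these, for the tail CU (0.244% and 0.166%). A changed base among the last 2 of a read is also counted as a tail. Whether the CU tails are added bases or changed bases was not tested.

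**Figure D4:**
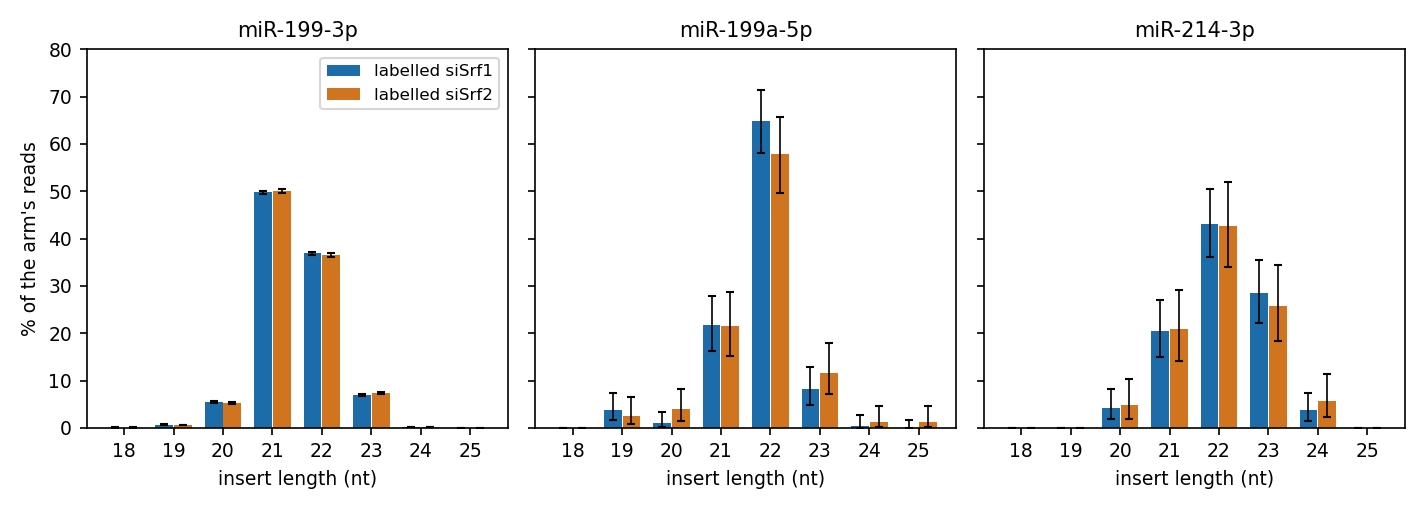
Insert length (x axis, nt) as a share of each arm's reads (y axis, percent) in the libraries labelled siSrf1 (blue) and siSrf2 (orange), with exact 95% counting intervals. miR-199-3p peaks at 21 nt (46224 and 33471 reads), while miR-199a-5p and miR-214-3p peak at 22 nt.

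The predicted fold of each hairpin paired the arms closely. RNAfold gave minimum free energies of −28.9 kcal/mol for Mir199a-1 (70 nt in RefSeq) and of −42.5, −42.1 and −67.5 kcal/mol for Mir199a-2, Mir199b and Mir214 (110 nt each), and hairpins of unequal length cannot be ranked by them. Between the most-read inserts of the arms there were 18 pairs in each miR-199 hairpin and 17 in Mir214. In Mir214 each strand had a 3′ overhang of 2 bases, the form that Drosha and Dicer leave, and in the miR-199 hairpins the 5p strand had an overhang of 1 base (for Mir199b with the ends of miR-199a-5p). The overhang of miR-199-3p has no value because the first base of the 5p strand was unpaired.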

How the data were processed

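For each library the authors deposited a read count for every distinct 36 nt sequence, not normalized and with the adapter still present, per the file headers. Per the labels, an Illumina small RNA kit and the Genome Analyzer were used. The aligner, build and filters: not given in the sources used here.

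The adapter was read from the data. Its first 8 nt, or at least 4 nt at the read end, were searched without mismatch, and inserts of 18 to 25 nt were kept. They were matched to 1137 hairpins: 1004 of 1005 RefSeq hairpins found by sequence in NCBIM37 and 133 named GENCODE vM1 genes. Matches were exact or had 1 to 2 added 3′ bases. An arm was defined by its most-read exact insert, with starts within 2 nt and ends within 3 nt. Inserts that fitted several arms were shared equally, and arms that shared at least 50% of reads were joined. A tail base that equals the hairpin's next base counts as encoded. A changed base among the last 2 of an insert counts as a tail. Counts were scaled to miRNA reads. Intervals were 95% (Clopper-Pearson for shares, Poisson for counts, conditional binomial for ratios; scipy 1.17.1). Folds came from RNAfold 2.7.2. The placement of inserts with their tails, the ratio interval and the size rule were tested on simulated data, and the other steps were not.

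The members and lists were chosen with earlier results of these data known. Beyond the members, miRNAs were named if they were among the 3 nearest in log2 ratio with at least 1000 reads, or marker miRNAs of the listed cell types. Alternatives used edgeR 4.0.16 and DESeq2 1.42.0 for scaling factors only, and other totals, lengths, adapters and minimums.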

Additional observations from a re-analysis of the deposited data

Results flagged for a closer look

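Reads that began with a member's most-read insert but held no exact adapter match were outside the counts above. For miR-199-3p there were 17231 such reads of 92988 (18.5%) in the library labelled siSrf1 and 11598 of 66172 (17.5%) in the library labelled siSrf2. For miR-199a-5p there were 37 of 232 (15.9%) and 16 of 155 (10.3%), and for miR-214-3p 51 of 132 (38.6%) and 40 of 95 (42.1%). Of the miR-199-3p reads, 88.1% and 88.0% held 12 nt of adapter with up to 2 mismatches, and of the miR-214-3p reads 62.7% and 70.0% did.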

How the results depend on the processing

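No paired analysis was possible because each label has 1 library, which also leaves no library to omit. Of 178 values under alternatives, 132 stayed close to the value reported. Close meant within its interval, within 1.5-fold for counts, or within a fixed distance for the median log2 ratio of all measured arms. The 33 ratios of the 3 member arms were all above 0 and 0 of them reached 1.

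The scaling moved the ratios most. The log2 ratio of miR-199-3p (0.27) became 0.75 (TMM factors), 0.71 (median-of-ratios size factors), 0.38 with the total of all inserts of 15 nt or longer, 0.65 with miR-1a-3p left out of the total and 0.30 with 12 nt of adapter and up to 2 mismatches, an alternative added after the data were seen. That of miR-214-3p (0.41) became 0.89, 0.85 and 0.79 with TMM factors, with size factors and without miR-1a-3p. The median of all measured arms moved with them, from −0.44 to 0.04, 0.00 and −0.06.

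The number of arms past the size rule and higher in the library labelled siSrf2 (63) became 35, 37 and 41 under those 3 scalings and 19 with a minimum of 500 reads. A minimum of 10 reads gave 94. The number higher in the library labelled siSrf1 (0) became 3, 3 and 2 under those scalings, and 1 with the total of all inserts, exact matches only, inserts of 20 to 24 nt, sequences seen once left out, or a minimum of 10 reads.

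The miR-199b share became 0% in the library labelled siSrf1 with exact matches, with 20 to 24 nt or without sequences seen once, and 0% in the library labelled siSrf2 without those. The 5p share of miR-214 became 0% in the library labelled siSrf2 without sequences seen once. The RefSeq form of miR-199-3p (21.2% and 20.7%) became 25.1% and 24.6% with exact matches, 22.9% and 22.6% with 12 nt of adapter and up to 2 mismatches, and 20.3% in the library labelled siSrf2 with 12 nt of adapter. The earlier 5′ end of miR-199-3p in the library labelled siSrf1 became 12.1% with exact matches. Exact matches leave out tailed reads, and the setting without sequences seen once leaves out those, so both change these shares by construction. So does the range of 20 to 24 nt for miR-199b in the library labelled siSrf1, where its 2 reads were 18 nt long. The cause of the other changes was not tested.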

Other observations

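Letters shared across the 3p cut were looked for in other hairpins after the values above were seen. GTACAG, 6 letters of the common run, was searched on the hairpin strand from 4 bases before to 7 bases after the most-read 5′ end. Among 143 arms with at least 100 reads in each library it was found in 4 (2.80%): miR-199-3p, miR-214-3p, miR-101a-3p and miR-101b-3p. The main 5′ end held 52.9% and 52.6% of miR-101a-3p reads and 58.8% and 56.3% of miR-101b-3p reads in the libraries labelled siSrf1 and siSrf2. These arms had been seen to have divided 5′ ends before the letters were searched, so the match supports nothing beyond the description.

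Reads with 1 changed base were not counted as members, unless the change lay in the last 2 bases and was taken for a tail. Over bases 1 to 18 of miR-199-3p, counted from its main 5′ end, 1 such change was found in 12.5% of reads (12.3 to 12.7) for the library labelled siSrf1 and 10.4% (10.2 to 10.7) for siSrf2. The most frequent was T5G, at 1.41% and 1.51%. For miR-214-3p the shares were 14.9% (9.94 to 21.0) and 12.2% (6.82 to 19.6). Inserts of 15 to 17 nt added 71 and 49 reads on the member hairpins, and inserts of 18 to 25 nt from the opposite strand added 0 in each library.

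Markers of other tissues were scarce beside miR-199-3p. The endothelial miR-126a made up 0.0591% and 0.0516% of miRNA reads, the 5 blood miRNAs 0.00911% and 0.00994%, and the liver miRNA miR-122 had 37 and 60 reads. The 3 neuronal miRNAs (miR-9, miR-124 and miR-128) made up 0.0333% and 0.0409%, mostly miR-128 with 1640 and 1751 reads.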
